A study of Mus musculus with 10 samples.

Results

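Within the E16.5 incisor data, 204 of the 4511 cells that passed the filters on cells (4.52%, exact binomial 95% interval 3.93 to 5.17%) met a rule for mesenchyme with genes of the dental papilla, and they are called rule cells here. The rule asked for a UMI (one counted RNA molecule) of at least 2 of the 6 genes *Crym*, *Tril*, *Egr3*, *Fgf3*, *Penk* and *Vegfd*, no UMI of *Ibsp* or *Sfrp4*, and a UMI of at most 2 of the 6 epithelial genes *Epcam*, *Krt5*, *Krt14*, *Krt17*, *Dsp* and *Dsc3*. The comparison cells, called other mesenchyme, were the 2078 remaining E16.5 cells within the same epithelial limit that had a UMI of at least 2 of *Prrx1*, *Twist1*, *Pdgfra* and *Col3a1*. The tissue came from wild type NMRI mouse embryos without treatment, as the bud of the lower incisor (E16.5, E14.5) or the whole mandible (E11.5), and was profiled with droplet-based single-cell RNA sequencing. The 10 samples in the labels (2 for E16.5, 4 for each earlier stage) were held in 1 matrix per stage, 22619 barcodes in all, and the barcodes did not name their sample. Each stage was therefore 1 sample without replicates, no test between groups was possible, and every interval below covers counting error only. Stage, sample and library cannot be told apart. Of the 204 barcodes, 2 also occurred in the matrix of another stage, which shared 17 (E11.5) and 16 (E14.5) barcodes with the E16.5 matrix in all.

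The dental papilla is the mesenchyme enclosed by the tooth epithelium. It signals to that epithelium through secreted factors, among them fibroblast growth factors, and later gives rise to the dental pulp and to odontoblasts, the cells that make dentin. The surrounding dental follicle forms the periodontal tissues, and around it lies mesenchyme that makes bone, in which *Ibsp* encodes bone sialoprotein, while *Sfrp4* encodes a secreted Wnt inhibitor.

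Of the 6 genes used to select the cells, *Fgf3* encodes a secreted growth factor, *Vegfd* a ligand of vascular endothelial growth factor receptors and *Penk* the precursor of enkephalin peptides. *Tril* encodes a membrane protein with leucine-rich repeats that works with Toll-like receptors, *Egr3* a zinc finger transcription factor of the immediate early class and *Crym* a cytosolic protein that binds thyroid hormone. *Fgf3* lies at chr7:144838083-144844436 on the plus strand of GRCm38, *Vegfd* at chrX:164373378-164402650 on the plus strand and *Tril* at chr6:53815468-53820830 on the minus strand. *Penk* lies at chr4:4133531-4138819 on the minus strand, *Egr3* at chr14:70077203-70082614 on the plus strand and *Crym* at chr7:120186380-120202111 on the minus strand. The promoters of *Fgf3*, *Vegfd* and *Tril*, the rule genes with an entry in the promoter table, are shown so that genes behind the selection can be read as sequence. They are taken from RefSeq on GRCm38.p6, run from 250 bases before to 50 after the start of transcription and read along the strand of the gene. Capitals mark matches, on either strand, to the motifs searched. Gene positions are those of GENCODE, so a start can differ between both sources, and the *Fgf3* window lies past the first base of the GENCODE gene. The *Fgf3* window is chr7:144838362-144838661, that of *Vegfd* is chrX:164373272-164373571 and that of *Tril* is chr6:53820776-53821075.
Fgf3: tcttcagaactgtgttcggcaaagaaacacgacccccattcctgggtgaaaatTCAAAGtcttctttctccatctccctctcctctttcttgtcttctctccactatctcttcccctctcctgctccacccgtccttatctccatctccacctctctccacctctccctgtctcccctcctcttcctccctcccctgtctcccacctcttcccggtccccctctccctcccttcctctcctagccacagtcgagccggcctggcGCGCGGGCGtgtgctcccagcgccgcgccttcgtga
Vegfd: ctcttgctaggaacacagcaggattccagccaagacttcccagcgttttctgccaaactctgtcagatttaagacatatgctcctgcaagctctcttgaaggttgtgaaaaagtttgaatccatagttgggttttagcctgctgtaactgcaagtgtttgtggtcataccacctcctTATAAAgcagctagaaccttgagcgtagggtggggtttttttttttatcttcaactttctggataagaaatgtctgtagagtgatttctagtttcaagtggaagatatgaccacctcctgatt
Tril: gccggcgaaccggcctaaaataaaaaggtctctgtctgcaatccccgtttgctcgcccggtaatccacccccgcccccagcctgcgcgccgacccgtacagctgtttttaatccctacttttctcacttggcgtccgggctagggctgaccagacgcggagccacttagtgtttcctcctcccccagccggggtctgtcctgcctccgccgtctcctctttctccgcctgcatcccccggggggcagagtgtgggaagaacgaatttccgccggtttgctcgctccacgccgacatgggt
The *Fgf3* window held the EGR motif GCGNGGGCG at base 15 after the start, which 5.55% of 32851 promoters of the same length held. It also held the LEF/TCF motif CTTTGA on the opposite strand at base -197, a motif found in 16% of all promoters. The *Vegfd* window held a TATAAA sequence at base -73, found in 13.6% of all promoters. The *Tril* window matched none of these motifs, nor the GLI motif GACCACCCA (0.253% of promoters) or the cyclic AMP response element TGACGTCA (1.79%), no match overlapped another, and the matches describe the letters only.

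The rule kept few cells with more than the minimum of evidence. Among the 2805 cells within the epithelial limit, 1623 had a UMI of none of the 6 genes, 902 of 1, 222 of 2 and 58 of 3 or more. Of the 280 cells with at least 2, the *Ibsp* and *Sfrp4* limits left out 76, 28 with an *Ibsp* UMI and 53 with an *Sfrp4* UMI. Among the 204 rule cells, 152 had exactly 2 of the genes, 41 had 3, 9 had 4 and 2 had 5. The rule cells were also the more deeply sequenced, with a median of 9858 UMIs per rule cell (2313 to 53861) against 5862 per cell of other mesenchyme.

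The values of these 6 genes follow from the selection and are a description. Levels are given as CPM (counts scaled to a common total of UMIs) of the summed counts of a group. The libraries count RNA ends, so the values were not divided by gene length. *Tril* stood at 127 CPM (114 to 142) in the rule cells with a UMI in 79.9% of them, and at 28.1 CPM in other mesenchyme. *Fgf3* stood at 49.97 CPM (41.7 to 59.5) against 7.81 CPM and was detected in 45.6% of the rule cells. *Vegfd* stood at 53.9 CPM (45.3 to 63.7) against 4.66 CPM, with a UMI in 38.7%. Among pairs of rule genes, 70 cells held *Tril* with *Fgf3*, 63 *Tril* with *Penk*, 53 *Tril* with *Vegfd* and 45 *Fgf3* with *Vegfd*, counts that the requirement for 2 of the genes shaped. *Penk* stood at 109 CPM (96.2 to 122) against 51.6 CPM and was detected in 39.2%. *Egr3* reached 17.7 CPM (12.9 to 23.7) against 10.1 CPM, with a UMI in 20.1%, and *Crym* 8.26 CPM (5.12 to 12.6) against 1.23 CPM, with a UMI in 8.33%. *Crym* thus marked 17 of the 204 cells. After each cell was thinned to 2000 UMIs, which removes the difference in depth, *Tril* was detected in 25.0%, *Penk* in 18.6%, *Vegfd* in 9.80%, *Fgf3* in 8.33%, *Egr3* in 3.43% and *Crym* in 1.47% of the rule cells. Endothelial cells, which served as the background of free RNA (117 cells, median 5944 UMIs), had no UMI of *Fgf3*, *Vegfd* or *Crym*, which allows up to 2.86 CPM, while *Tril* had a UMI in 17.9% of them, *Egr3* in 5.13% and *Penk* in 3.42%.

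**Figure D1:**
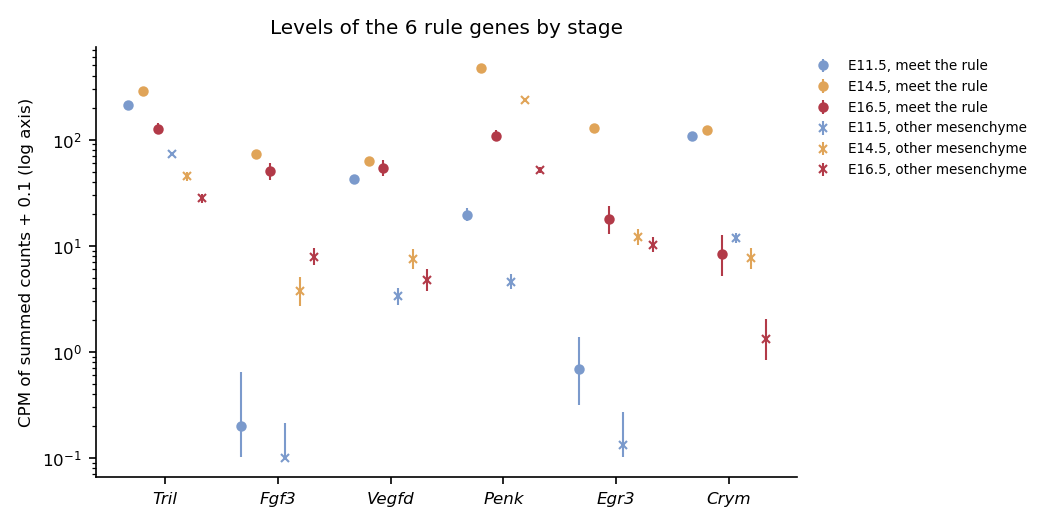
The vertical axis gives the level of each of the 6 rule genes in CPM plus 0.1 on a log scale, with 95% Poisson intervals, for the cells that meet the rule (circles) and other mesenchyme (crosses) of each of the 3 stages. At E16.5, *Crym* stood at 8.26 CPM and *Egr3* at 17.7 CPM in the rule cells, against 124 and 128 CPM in the E14.5 cells that met the same rule.

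Mesenchyme markers, which the rule for these cells did not use, were all present. The 8 markers (*Prrx1*, *Prrx2*, *Twist1*, *Twist2*, *Pdgfra*, *Col3a1*, *Col1a1* and *Col1a2*) had a summed level of 3313 CPM against 4361 CPM in other mesenchyme, with *Col1a1* as the most abundant at 1095 CPM, and 194 of the 204 cells would have met the mesenchymal limit of the comparison cells. Other mesenchyme was itself chosen through *Prrx1*, *Twist1*, *Pdgfra* and *Col3a1*, which bears on its sum. Of 10 epithelial markers 9 were detected (*Krt15* was at 0), at a sum of 64.5 CPM against 3938 CPM in the epithelial cells of the same matrix and with *Epcam* the most abundant at 18.5 CPM, but the rule itself limited 6 of these markers. Immune markers were nearly absent, with 2 of 7 detected at a sum of 1.18 CPM, *Tyrobp* the most abundant and *Ptprc*, *C1qa*, *C1qb*, *Cd52* and *Laptm5* at 0. The glial markers *Sox10* and *Foxd3* were at 0, and skeletal muscle markers summed to 2.36 CPM (*Tnnt1* only, with *Myod1* and *Myog* at 0). All 7 endothelial markers had a UMI, at a sum of 51.2 CPM against 29.1 CPM in other mesenchyme and 3695 CPM in endothelial cells, with *Egfl7* the most abundant at 17.7 CPM. Pericyte markers summed to 70.8 CPM, led by *Pdgfrb*, against 180 CPM in other mesenchyme, and chondrocyte markers to 63.0 CPM, nearly all of it *Sox9*, against 66.1 CPM. Erythroid RNA was plentiful in both groups, 8461 CPM in the rule cells and 9079 CPM in other mesenchyme, with all 6 markers detected and *Hbb-bs* the most abundant at 3734 CPM. The part of such foreign RNA in the comparisons below was not tested.

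The rule cells did not form a cluster of their own. All E16.5 cells were clustered without the 6 rule genes, *Ibsp* and *Sfrp4*, while the epithelial genes of the rule were not left out. This placed 128 of the 204 rule cells (62.7%) in 1 cluster, led by *Smpd3*, *Plac8*, *Sgms2*, *Lum*, *Itga4* and *Panx3*, against 24.0% of other mesenchyme. A second cluster, led by *Col8a1*, *Lypd1*, *Smoc2* and *Pax9*, held 42 rule cells (20.6%) and 36.6% of other mesenchyme. The third mesenchymal cluster, led by *Igf1*, *Pdzrn4*, *Ogn* and *Postn*, held 28 rule cells (13.7%) and 37.0% of other mesenchyme. The rule cells made up 17.9% of the 717 cells of the *Smpd3* cluster. Of the 52 rule cells with 3 or more rule genes, 43 (82.7%) lay in the *Smpd3* cluster. A further 3 rule cells lay in an epithelial cluster led by *Igfbpl1*, 1 in a cluster led by *Cldn10* and 2 in an endothelial cluster led by *Cdh5*. Since the cells spread over several clusters, and since the markers of the papilla were the genes that selected them, they are named by their rule and not as papilla in what follows.

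**Figure D2:**
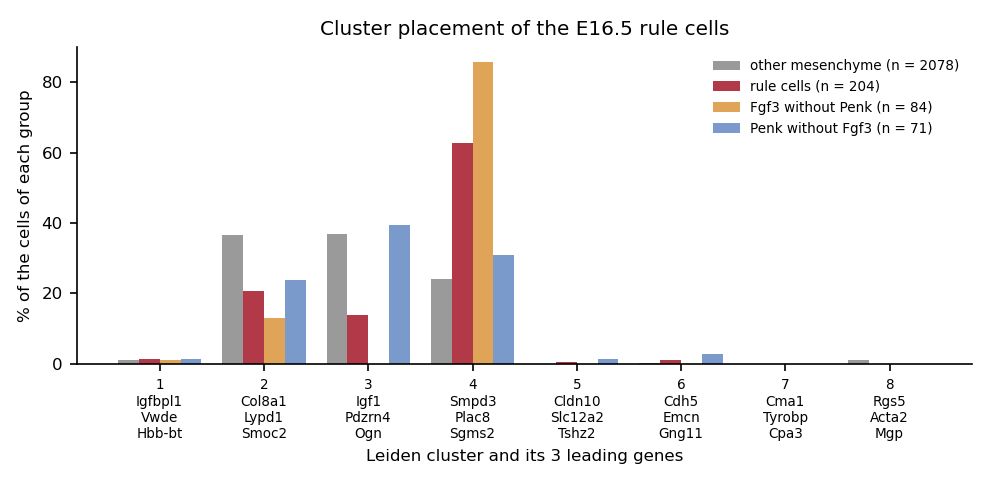
Bars show the percentage of the cells of each group that fell in each cluster of E16.5 cells, with the 3 leading genes of a cluster beneath its number. Rule cells with *Fgf3* and without *Penk* lay in the *Smpd3* cluster at 85.7%, while those with *Penk* and without *Fgf3* were spread over the 3 mesenchymal clusters at 39.4, 31.0 and 23.9%.

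The first comparison asked which other genes set the rule cells apart from the rest of the E16.5 mesenchyme. The 8204 genes with 50 or more counts that were detected in 10% or more of the cells of one group or the other were compared by the log2 ratio of their CPM with 10 CPM added to each, and a ratio past 2-fold was counted. With all genes that selected either group left out, 23 genes (0.28% of those compared) were higher past 2-fold in the rule cells and 75 (0.914%) were lower. The counts moved with the value added, to 89 and 129 with 1 CPM and 3 and 18 with 50 CPM, and to 218 and 205 with the rule applied after thinning. The median log2 ratio over all genes compared was 0.05. The genes higher in the rule cells were led by *Plac8*, *Car2* and *Smpd3* and the genes lower in them by *Igfbp5*, *Pdzrn4* and *Ebf1*.

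*Plac8*, which encodes a small cysteine-rich protein, stood at 537 CPM (509 to 566) in the rule cells and at 115 CPM (110 to 121) in other mesenchyme, a log2 ratio of 2.13 (2.03 to 2.23). It had a UMI in 41.7% of the rule cells and in 10.5% of other mesenchyme, or 29.4 and 6.16% after thinning. Of the 117 endothelial cells 1 had a *Plac8* UMI (0.855%). *Car2*, a carbonic anhydrase, stood at 179 CPM (163 to 197) and 43.1 CPM (39.8 to 46.6), a log2 ratio of 1.83, and was detected in 44.1 and 12.8% of the cells (22.5 and 4.55% thinned). *Smpd3*, a neutral sphingomyelinase needed for the mineralization of bone and dentin, stood at 806 CPM (771 to 841) and 264 CPM (255 to 272), a log2 ratio of 1.58, with a UMI in 52.0 and 14.9% of the cells (35.8 and 10.0% thinned). *Sgms2*, which makes the sphingomyelin that *Smpd3* cleaves, was also higher, at 145 and 57.5 CPM, a log2 ratio of 1.20, although with the rule applied after thinning, which left 35 rule cells, its ratio was -0.59. This pair of sphingomyelin enzymes was among the leading genes of the cluster that held most rule cells.

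Among regulators, the transcriptional repressor *Prdm1* stood at 43.3 and 10.7 CPM (log2 ratio 1.37), the zinc finger factor *Sall3* at 34.2 and 8.29 CPM (1.27) and the transcription factor *Myb* at 43.7 and 13.01 CPM (1.22). *Notum*, a secreted enzyme that inactivates Wnt proteins, stood at 49.2 and 15.3 CPM (1.23). Other genes of this group were *Fam107b* (1.39), *Ank3*, a membrane scaffold (1.24), the asparagine synthetase gene *Asns* (1.23), *Dcbld1* (1.17), *Sorbs2* (1.12), *Rubie* (1.09), the carbonic anhydrase *Car12* (1.08) and *Ccdc81* (1.06). The remaining genes named were *Arhgap11a* at 1.12, *Aspm* at 1.08, the ubiquitin-conjugating enzyme *Ube2c* at 1.07 and the importin *Kpna2* at 1.03. With the rule applied after thinning, the ratios of *Rubie*, *Car12*, *Ccdc81* and *Aspm* turned to -0.048, -0.66, -0.56 and -0.16. Among cells with at most 1 cell cycle gene, a setting chosen after the values were seen, those of *Ank3* and *Kpna2* turned to -0.11 and -0.18, and that of *Ube2c*, itself one of the genes limited by the setting, to -0.57. The *Plac8* value did not rest on 1 cell, since no rule cell had more than 96 of the 1364 *Plac8* UMIs, but 20 cells held 57.7% of them.

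Among genes lower in the rule cells, *Igfbp5*, an insulin-like growth factor (IGF) binding protein, stood at 52.3 CPM (43.8 to 62.0) against 423 CPM (412 to 434), a log2 ratio of -2.80. *Igfbp3*, of the same family, stood at 27.5 and 163 CPM (-2.20). *Cdkn1c*, an inhibitor of cyclin-dependent kinases, stood at 95.6 and 466 CPM (-2.17). The transcription factors *Ebf1* and *Maf* had log2 ratios of -2.39 and -2.29, and the glutamate transporter *Slc1a3* one of -2.33. *Pdzrn4* stood at 2.36 against 72.8 CPM (-2.74), the calmodulin-binding peptide *Pcp4* at 13.4 against 100 CPM (-2.24), the proteoglycan gene *Ogn* at 18.5 against 119 CPM (-2.17) and the calcification inhibitor *Mgp* at 8.26 against 68.3 CPM (-2.10).

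**Figure D3:**
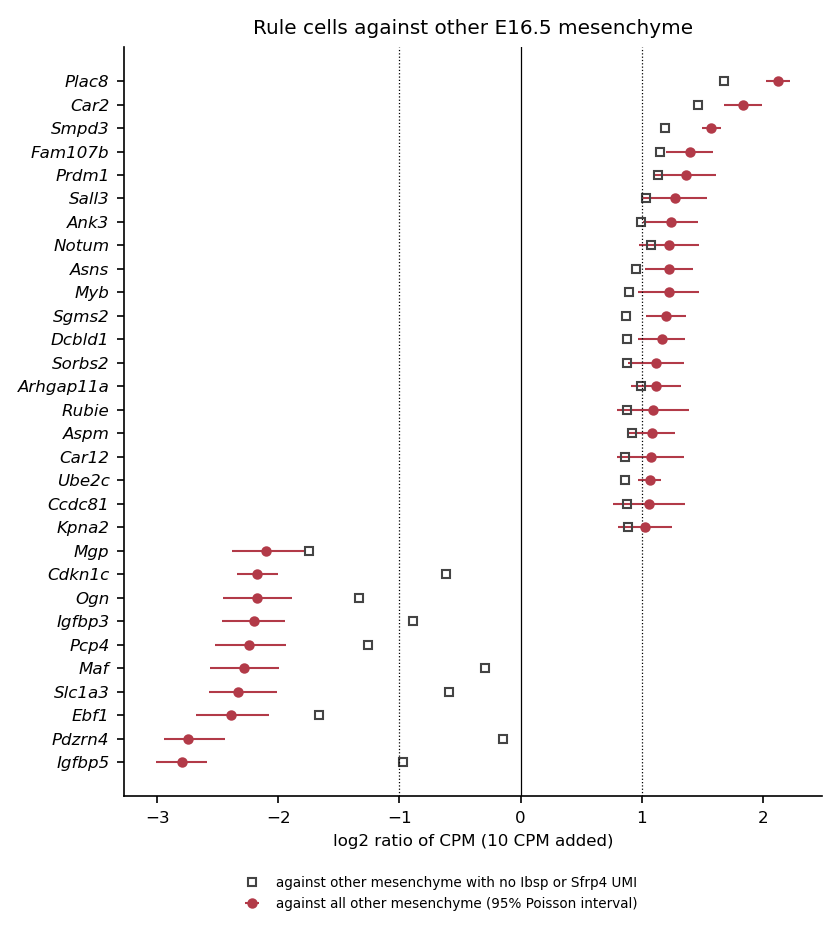
Points give the log2 ratio of CPM (10 CPM added) of the rule cells over other E16.5 mesenchyme for the 20 highest and 10 lowest genes with 95% Poisson intervals, and open squares the ratio against other mesenchyme without an *Ibsp* or *Sfrp4* UMI. The dotted lines mark 2-fold, and *Plac8*, *Car2* and *Smpd3* lie past it by both measures, whereas most genes lower in the rule cells lie nearer to 0 as squares.

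The requirement for no *Ibsp* or *Sfrp4* UMI bore on these counts, because 806 cells of other mesenchyme carried one and no rule cell could. Against the 1272 other mesenchymal cells without either, 9 genes were higher past 2-fold and 8 lower. Of the 9, 7 were also in the first comparison (*Car2*, *Fam107b*, *Notum*, *Plac8*, *Prdm1*, *Sall3* and *Smpd3*), and the other two were the Wnt inhibitors *Dkk1* and *Apcdd1*. The 8 lower genes were *Col8a1*, *Gng11*, *Lsp1*, *Myl9*, *Ogn*, *Pcp4*, *Sfrp2* and *Smoc2*. Against these cells *Igfbp5* had a log2 ratio of -0.97, *Igfbp3* of -0.89 and *Cdkn1c* of -0.62. When the limit was lifted from the rule instead, 7 genes were higher and 1 was lower, and the ratios of *Pdzrn4*, *Slc1a3* and *Maf* were 0.053, 0.056 and 0.094. Within the *Smpd3* cluster alone, a comparison chosen after the values were seen, 4 genes were higher (*Car2*, *Plac8*, *Prdm1* and *Dlx1as*) and 17 lower, 4 of the latter globin genes.

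*Plac8*, *Smpd3* and *Car2* also differed with the number of rule genes among cells without *Ibsp* or *Sfrp4*, on both sides of the threshold. *Plac8* stood at 95.3 CPM in 796 other mesenchymal cells with none of the rule genes, 246 CPM in 476 with 1, 378 CPM in the 152 rule cells with 2 and 864 CPM in the 52 with 3 or more. *Smpd3* stood at 264, 454, 583 and 1265 CPM in these 4 classes, and *Car2* at 38.5, 84.2, 126 and 290 CPM. The cells just outside and just inside the threshold thus differed less than the cells with 2 and with 3 or more rule genes. The median depth of the classes was 5452.5, 7195, 8804 and 12614.5 UMIs, and its part in these values was not tested.

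For the transcription factors of odontogenic mesenchyme, the shares over all genes compared were 0.28% higher and 0.914% lower in the rule cells. Of 18 compared, none was higher past 2-fold, and *Runx2*, the regulator of bone-forming cells, was the only one lower, at 136 and 283 CPM (log2 ratio -1.004, but -0.53 against cells without *Ibsp* or *Sfrp4*). *Msx1* stood at 466 and 340 CPM (0.44) and *Msx2* at 151 and 74.2 CPM (0.93), both homeobox genes of tooth mesenchyme. The median over the list was 0.05, the same as over all genes.

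None of the FGF genes compared passed 2-fold. The ligand *Fgf10* stood at 64.1 and 37.9 CPM (0.63). Of 10 FGF response genes 9 had a ratio above 0, and their median was 0.47 beside 0.05 for all genes, with *Etv4* at 0.99, the feedback inhibitor *Il17rd* at 0.90 and *Etv5* at 0.73. Of the 2 FGF receptors compared 1 had a ratio above 0.

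Wnt, BMP and hedgehog genes are set beside the 0.28% of all genes that were higher and the 0.914% that were lower. Among 10 Wnt inhibitors *Notum* was higher and *Sfrp2*, at 135 against 585 CPM (-2.03), was lower, while *Dkk1* (0.97) and *Apcdd1* (0.98) stayed just within 2-fold. No Wnt ligand or R-spondin (7 compared), Wnt receptor (9), ligand of the BMP and TGF-beta family (9) or receptor of that family (6) passed 2-fold. *Bambi*, a decoy receptor that inhibits BMP signalling, stood at 369 and 222 CPM (0.70). Of 7 hedgehog genes, *Hhip*, which binds hedgehog ligands, was lower at 7.08 against 48.1 CPM (-1.77, but -0.62 against cells without *Ibsp* or *Sfrp4*).

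For the tissues around the papilla, the counts below stand beside a share of 0.914% lower among all genes. Against the cells without *Ibsp* or *Sfrp4*, every gene named here as lower had a ratio nearer to 0. Of 11 dental follicle genes 5 were lower, among them *Postn*, which encodes periostin, at 72.4 against 240 CPM (-1.60), *Tagln* (-1.83) and *Spon1* (-1.08), and none was higher. Against the cells without *Ibsp* or *Sfrp4* the ratios were -0.80 for *Postn*, -1.55 for *Tagln* and -0.38 for *Spon1*. Of 10 IGF genes 5 were lower and none was higher, with a median of -1.04. These were *Igf1* (76.7 and 204 CPM, -1.30, but 0.033 against cells without *Ibsp* or *Sfrp4*), the non-coding RNA *H19* (191 and 563 CPM, -1.51, but -0.72 against those cells), *Igfbp2* (-1.09, but -0.22 against those cells), *Igfbp3* and *Igfbp5*. Of 9 osteogenic genes 2 were lower, *Runx2* and the phosphatase *Alpl* (29.9 and 73.7 CPM, -1.07, but -0.26 against those cells). Of 27 matrix genes 2 were lower, *Sparc* (-1.08) and *Col12a1* (-1.12), and of 19 axon and vessel guidance genes 2 were lower, *Cxcl12* (-1.55) and *Epha3* (-1.39). Against the cells without *Ibsp* or *Sfrp4*, *Sparc* stood at -0.53, *Col12a1* at -0.81, *Cxcl12* at -0.74 and *Epha3* at -0.26. Of 17 immediate early genes, which respond within minutes to stimulation or tissue handling, *Nr4a1* (-1.13), *Fosb* (-1.05) and *Klf2* (-1.01) were lower and none was higher, and against those cells their ratios were -0.93, -0.75 and -0.78. Of 7 odontoblast genes *Smpd3* was higher, *Alpl* was lower and *Col1a1* was at the same level (-0.04). None of the 12 retinoid and thyroid hormone genes compared passed 2-fold, and *Aldh1a2*, which makes retinoic acid, was detected in too few cells to be compared (0.393 and 18.1 CPM, with a UMI in 0.490 and 6.83% of the cells).

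More RNA of the cell cycle was present in the rule cells. All 10 genes of the cell cycle list had a ratio above 0 with a median of 0.90, although only *Ube2c* passed 2-fold, and their sum was 3600 CPM against 1943 CPM, a log2 ratio of 0.89 (0.85 to 0.92). *Top2a*, which encodes the topoisomerase of dividing cells, stood at 855 and 451 CPM (0.91) and *Mki67* at 364 and 206 CPM (0.79). All 11 S phase genes also had a ratio above 0, with a median of 0.43. A UMI of at least 3 of the 10 genes was present in 70.1% of the rule cells (63.3 to 76.3%) and 31.3% of other mesenchyme, or 48.5 and 22.0% after thinning. The share was 30.4% in cells with none of the rule genes, 47.1% with 1, 64.5% with 2 and 86.5% with 3 or more (20.7, 34.8, 45.4 and 57.7% thinned). Among cells of 4000 to 12000 UMIs the log2 ratio of the sums was 0.51, and against the cells without *Ibsp* or *Sfrp4* it was 0.67. Depth thus moved with this result, and its part beyond these values was not tested. Of 14 glycolysis genes 12 had a ratio above 0 and none passed 2-fold, with *Ldha* at 611 and 318 CPM (0.92). The median over all genes compared was itself just above 0, so counts of genes above 0 in these lists are a description.

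Against the 806 cells with an *Ibsp* or *Sfrp4* UMI alone, a contrast that the rule itself used, 8284 genes were compared. Of these, 136 (1.64%) were higher past 2-fold in the rule cells and 204 (2.46%) lower. Both counts fell when the limit on these genes was lifted from the rule and moved with the CPM added, as given in the last section. *Plac8* stood at 537 and 46.8 CPM (3.27), *Car2* at 179 and 20.4 CPM (2.64) and *Smpd3* at 806 and 139 CPM (2.45). The R-spondin gene *Rspo2*, which amplifies Wnt signalling, stood at 99.2 and 15.5 CPM (2.10), *Msx2* at 151 and 29.3 CPM (2.03) and *Emb* at 64.1 and 8.84 CPM (1.98). *Sgms2* had a ratio of 1.91, which turned to -0.086 with the rule applied after thinning, and *Myb* one of 1.90. *Foxd1* (1.86), *Dlx2* (1.30) and *Dlx1* (1.25) joined *Msx2* among the odontogenic factors that were higher, while *Runx2* was lower. The lowest ratios were those of *Pdzrn4* (-3.91), *Igfbp5* (-3.84), *Maf* (-3.36), *Slc1a3* (-3.36), *Cdkn1c* (-3.16), *Igfbp3* (-3.12), *Ebf1* (-3.06) and *Pcp4* (-3.03). Of the 10 cell cycle genes 8 were higher and none lower, and of the 10 IGF genes 7 were lower and none higher. Lower genes also numbered 9 of 17 immediate early, 8 of 27 matrix and 6 of 11 follicle genes, with none higher in these lists. *Fgf10* (1.32) and *Bmp4* (1.15), both growth factors of tooth mesenchyme, were among the higher genes.

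The rule cells were of more than 1 kind. A UMI of *Fgf3* and one of *Penk* were found together in only 9 rule cells, while 84 (41.2%) had *Fgf3* without *Penk*, 71 (34.8%) had *Penk* without *Fgf3* and 40 had neither. The requirement for at least 2 of 6 genes in itself makes rule genes seem to avoid each other, so the split is read through genes outside the rule. Within the 204 cells the detection of *Fgf3* went with that of *Smpd3* (phi coefficient 0.64, 81 cells with both) and *Sgms2* (0.63), and the detection of *Penk* went against that of *Smpd3* (-0.57, 13 cells with both). These coefficients are across cells that share a library and differ in depth, with a median of 12347.5 UMIs in the *Fgf3* cells and 7473 in the *Penk* cells. The pair of subsets was chosen after their values had been seen.

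Between the cells with *Fgf3* without *Penk* and those with *Penk* without *Fgf3*, 4716 genes were compared, of which 104 (2.21%) were higher past 2-fold in the former and 149 (3.16%) in the latter. *Plac8* stood at 782 CPM (734 to 833) in the *Fgf3* cells and 18.3 CPM (9.16 to 32.8) in the *Penk* cells, a log2 ratio of 4.80, with a UMI in 71.4 and 2.82% of the cells (50 and 1.41% thinned). *Smpd3* stood at 1196 CPM (1136 to 1258) and 40.0 CPM (25.6 to 59.6), a ratio of 4.59, with a UMI in 86.9 and 7.04% of the cells (64.3 and 4.23% thinned). Both genes were lower in the *Penk* cells than in other mesenchyme, where they stood at 115 and 264 CPM, and above it in the *Fgf3* cells. The integrin subunit *Itga4* stood at 288 and 18.3 CPM (3.40), *Car2* at 247 and 21.7 CPM (3.02) and *Sgms2* at 205 and 21.7 CPM (2.76). *Sall3* stood at 54.2 CPM in the *Fgf3* cells and had no UMI in the *Penk* cells, which makes it at least 10.8-fold higher against 3 counts over that group. *Ank3* (2.59), *Msx2* (215 and 33.4 CPM, 2.38), *Asns* (2.28) and the non-coding RNA *D030025E07Rik* also led this side.

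The lowest ratios were those of genes detected in the *Penk* cells. *Pappa2*, a protease that cleaves IGF binding proteins, stood at 203 CPM (169 to 243) in the *Penk* cells and had no UMI in the *Fgf3* cells, at least 83.8-fold lower. The Wnt inhibitor *Dkk2* stood at 320 CPM (276 to 369) against 7.29 CPM in the *Fgf3* cells (log2 ratio -4.26) and *Igf1* at 302 CPM (259 to 349) against 8.10 CPM (-4.11). The R-spondin gene *Rspo3* stood at 192 against 3.24 CPM (-3.93) and the BMP family member *Bmp3* at 113 against 1.62 CPM (-3.41). The transcription factors *Nfib* (-3.54) and *Nfia* (-3.18) were lower in the *Fgf3* cells too, as were *Mme*, which encodes the peptidase neprilysin (-3.16), the matrix protein *Smoc2* (-2.91) and *Ndnf* (-2.68). *Spon1* stood at 78.4 CPM in the *Penk* cells and at 0 in the *Fgf3* cells, at least 32.3-fold lower. *Dkk2*, *Igf1*, *Pappa2* and *Rspo3* were also above their level in other mesenchyme, which was 77.1, 204, 58.5 and 28.6 CPM.

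**Figure D4:**
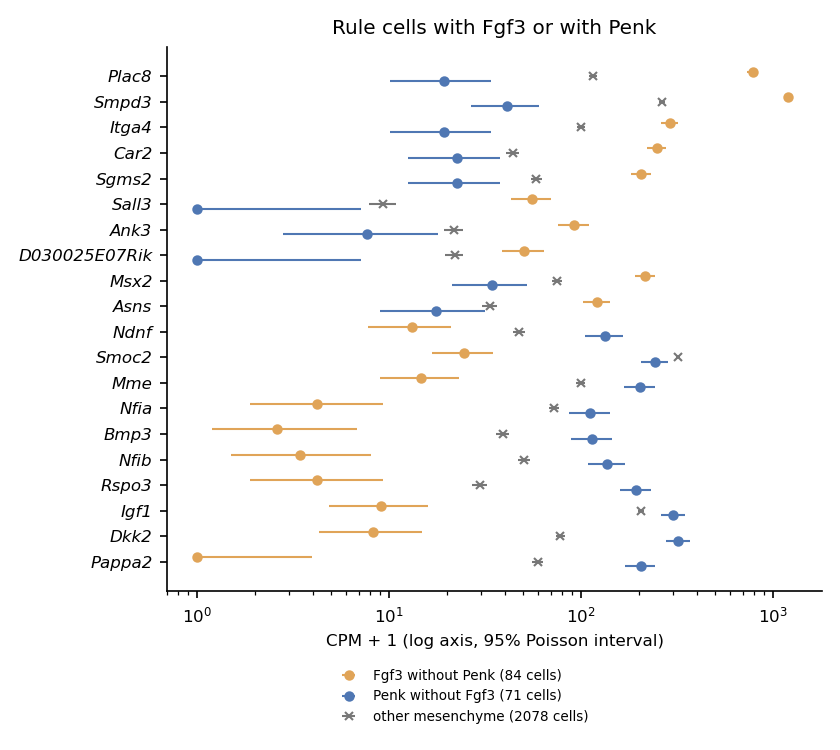
Levels in CPM plus 1 on a log axis, with 95% Poisson intervals, are shown for the 10 highest and 10 lowest genes of the comparison of rule cells with *Fgf3* without *Penk* and rule cells with *Penk* without *Fgf3*, with other mesenchyme as crosses. *Plac8* and *Smpd3* lie at 782 and 1196 CPM in the *Fgf3* cells and at 18.3 and 40.0 CPM in the *Penk* cells, and *Dkk2* and *Igf1* lie at 7.29 and 8.10 CPM against 320 and 302 CPM.

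Each subset was also set against the 2078 cells of other mesenchyme. The *Fgf3* cells had 74 genes higher past 2-fold (0.878% of 8430) and 236 lower (2.8%), and the *Penk* cells 52 higher (0.709% of 7330) and 37 lower (0.505%). Both comparisons used the same cells of other mesenchyme.

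Members of several lists passed 2-fold between the subsets, in both directions. Among 8 Wnt inhibitors *Dkk1* (64.0 and 8.34 CPM, 2.01) and *Notum* (67.2 and 10.0 CPM, 1.95) were higher in the *Fgf3* cells, and *Dkk2*, *Sfrp1*, *Sfrp2* and *Wif1* were higher in the *Penk* cells. Of 5 Wnt ligands and R-spondins *Rspo4* (1.55) was higher in the *Fgf3* cells and *Rspo3* in the *Penk* cells. Of 5 BMP inhibitors *Bambi* stood at 491 and 135 CPM (1.79), whereas *Sostdc1*, which encodes a secreted BMP and Wnt inhibitor, stood at 102 and 545 CPM (-2.31). Of 14 odontogenic factors *Msx2* and *Dlx5* (1.06) were higher in the *Fgf3* cells and *Pax9* (-1.53), *Alx1* (-1.48) and *Runx2* (-1.65) lower, while *Msx1* was at 482 and 465 CPM. Beside 2.21% of all genes higher and 3.16% lower in this comparison, of 8 IGF genes compared 6 were lower in the *Fgf3* cells and none higher, and of 24 matrix genes 8 were lower, among them *Sparc* (-2.36), *Col6a2* (-2.38) and *Col1a2* (-2.10), and 2 higher, *Fn1* (1.17) and *Hapln1* (1.32). Of 11 immediate early genes 7 were lower in the *Fgf3* cells, *Fos* at 189 against 530 CPM (-1.44), and of 11 glycolysis genes 3 were higher, *Pgk1*, *Eno1* and *Ldha*. *Aldh1a3*, which makes retinoic acid, stood at 237 and 61.7 CPM (1.79), and the retinoic acid binding protein gene *Crabp2* at 34.8 and 192 CPM (-2.17).

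The summed level of cell cycle RNA was similar in both subsets, at 3553 CPM in the *Fgf3* cells and 3683 CPM in the *Penk* cells, both above the 1943 CPM of other mesenchyme, and none of the 10 genes passed 2-fold between the subsets. A UMI of at least 3 of these genes was present in 85.7% of the *Fgf3* cells (76.4 to 92.4%) and 49.3% of the *Penk* cells (37.2 to 61.4%), whose median depths were 12347.5 and 7473 UMIs. After thinning the shares were 53.6% (42.4 to 64.5%) and 35.2% (24.2 to 47.5%), with overlapping intervals. Markers of other cells did differ between the subsets. Globin and other erythroid RNA summed to 4952 CPM in the *Fgf3* cells and 13810 CPM in the *Penk* cells, all 6 genes detected in both, with *Hbb-bs* at 2284 and 6125 CPM. *Hbb-bs* had a UMI in 73.8% of the *Fgf3* cells and 64.8% of the *Penk* cells. Endothelial markers summed to 18.6 CPM in the *Fgf3* cells, where *Egfl7* was the most abundant and *Cdh5*, *Kdr*, *Emcn*, *Tie1* and *Cldn5* were at 0, and to 130 CPM in the *Penk* cells, all 7 detected and *Cdh5* leading in 4.23% of cells. The part of these cells and of free RNA in the list differences was not tested.

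*Egr3* and *Crym* were each detected in fewer of the rule cells, which were set against the remaining rule cells. In the 41 rule cells with an *Egr3* UMI, 36 of 5824 genes compared (0.618%) were higher past 2-fold than in the other rule cells and 25 (0.429%) lower. *Col8a1* stood at 1043 and 183 CPM (2.45), *Smoc2* at 316 and 69.4 CPM (2.04), *Mylk*, the myosin light chain kinase, at 75.6 and 11.2 CPM (2.01), *Fosb* at 110 and 27.6 CPM (1.68) and *Lypd1* at 254 and 73.5 CPM (1.66). *Col8a1*, *Smoc2* and *Lypd1* were the leading genes of the second mesenchymal cluster. The lowest genes were the globins, *Hbb-bt* at 345 and 2020 CPM, and the heat shock gene *Hspa1b* at 56.7 and 172 CPM (-1.45). *Hbb-bt* had a UMI in 34.1 and 29.4% of the cells, and the globin *Hba-a1* in 31.7 and 39.9%.

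The 17 rule cells with a *Crym* UMI had 57 genes of 5823 (0.979%) higher and 396 (6.8%) lower. *Plac8* stood at 1463 and 447 CPM (1.69), *Dkk1* at 161 and 38.4 CPM (1.82), the Wnt ligand *Wnt6* at 75.8 and 15.5 CPM (1.75), *Alpl* at 98.1 and 23.3 CPM (1.70) and the creatine kinase gene *Ckb* at 129 and 27.6 CPM (1.89). The lowest were again globins, with *Hbb-bs* at 116 and 4084 CPM (-5.02), and *Col8a1* at 22.3 and 415 CPM (-3.72). The share of cells with a globin UMI differed less, at 82.4 and 71.7% for *Hbb-bs* and 29.4 and 30.5% for *Hbb-bt*. Of these 17 cells 11 held *Fgf3*, 1 held *Penk* and 16 each held *Plac8* and *Smpd3*. Splitting all rule cells by *Fgf3* alone gave 33 genes higher (0.567%) and 108 lower (1.85%), led by *Plac8* at 809 and 182 CPM (2.09), *Smpd3* (1.86), *Sall3* (1.82), *Itga4* (1.71) and *Notum* (1.68), and by *Pappa2* (-3.49), *Dkk2* (-3.35), *Rspo3* (-3.20), *Igf1* (-3.20) and *Bmp3* (-2.65). A split by *Penk* gave 102 higher (1.75%) and 28 lower (0.481%), led by *Pappa2* at 153 CPM in cells with *Penk* and 0 in those without, and by *Car12* (-1.81) and *Smpd3* (-1.74). By *Vegfd*, 24 genes were higher (0.412%) and 97 lower (1.67%), and by *Tril* 58 were higher (0.996%) and 15 lower (0.258%).

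The same rule picked 1072 of 6091 passing cells at E14.5 (17.6%) and 816 of 6573 at E11.5 (12.4%), larger shares than at E16.5. The levels of the rule genes differed between the stages as well. In the cells picked at E14.5 and the E16.5 rule cells, *Crym* stood at 124 and 8.26 CPM and *Egr3* at 128 and 17.7 CPM, *Penk* stood at 470 and 109 CPM and *Tril* at 287 and 127 CPM. *Fgf3* (73.0 and 49.97 CPM) and *Vegfd* (62.6 and 53.9 CPM) were nearer to each other at both stages. At E11.5 *Tril* stood at 213 CPM and *Crym* at 109 CPM in the cells picked, while *Fgf3* had 1 count in all of them and *Egr3* stood at 0.592 CPM, and no further comparison with that stage was made.

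Between the E16.5 rule cells and the E14.5 cells that met the same rule, 8093 genes were compared. Of these, 271 (3.35%) were higher past 2-fold at E16.5 and 59 (0.729%) lower. Both counts moved with the CPM added, and the lower count rose after thinning, as given in the last section. The median depth was 9858 UMIs in the E16.5 cells and 5557 in the E14.5 cells, and its part was not tested. The groups differed in their mixture by the rule genes, with *Penk* detected in 82.6% of the E14.5 cells and 39.2% of the E16.5 cells, and the part of this in the stage ratios was not tested. The same contrast in other mesenchyme gave 112 of 6542 higher (1.71%) and 39 lower (0.596%). *Plac8* stood at 537 CPM at E16.5 and 2.57 CPM at E14.5 (log2 ratio 5.44), *Itga4* at 203 and 1.61 CPM (4.20) and *Smpd3* at 806 and 37.6 CPM (4.10). *Sgms2* had 3 counts in all E14.5 cells picked, 0.481 CPM, against 145 CPM (3.89). *Plac8*, *Itga4* and *Sgms2* thus had few counts in the E14.5 cells picked, while *Smpd3* had a UMI in 14.1% of them and *Lum*, also of the *Smpd3* cluster, stood at 177 CPM against 793 CPM at E16.5 (2.10). In other mesenchyme, *Plac8* stood at 115 CPM at E16.5 and 1.41 CPM at E14.5, and *Smpd3* at 263 and 21.1 CPM. Both genes were thus higher at E16.5 outside the rule cells as well. *Col8a1* (380 and 20.2 CPM, 3.69), *Smoc2* (126 and 1.12 CPM, 3.61), *Lypd1* (115 and 6.90 CPM, 2.89) and *Bmp2* (75.2 and 2.25 CPM, 2.80), genes of the second cluster, were higher at E16.5 as well. In other mesenchyme their log2 ratios between the stages were 4.11, 3.91, 3.57 and 2.08.

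The embryonic globins *Hbb-y* (3.94 and 1215 CPM, -6.46) and *Hba-x* (-4.44), which red cells replace with adult forms during gestation, had the lowest ratios. *Lgals7* stood at 48.8 and 480 CPM (-3.06), *Ebf1* at 8.66 and 109 CPM (-2.67), *Igfbp3* at 27.5 and 196 CPM (-2.45), the collagen gene *Col25a1* at 2.75 and 48.1 CPM (-2.19) and the chromatin protein gene *Hmga2* at 75.6 and 354 CPM (-2.09). *Spp1*, which encodes osteopontin, had no UMI at E16.5 and 51.8 CPM at E14.5, at least 43.9-fold lower. For *Igfbp3* the ratio in other mesenchyme was of the opposite sign (163 and 60.7 CPM, 1.29), and for *Hmga2* it was -1.25.

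**Figure D5:**
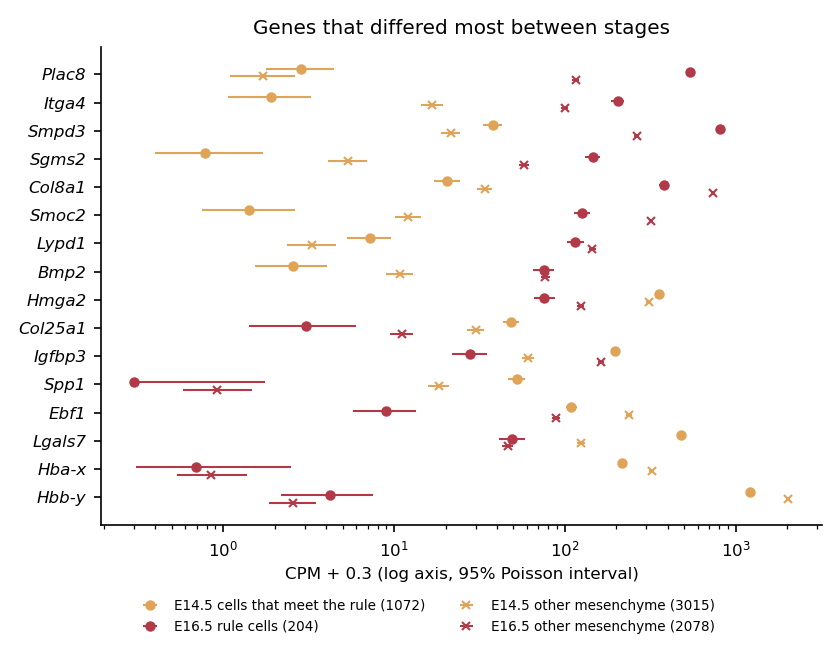
Levels in CPM plus 0.3 on a log axis, with 95% Poisson intervals, are shown for the 8 highest and 8 lowest genes between the E16.5 rule cells and the E14.5 cells that met the rule (circles), with other mesenchyme of both stages as crosses. *Plac8*, *Itga4*, *Smpd3* and *Sgms2* lie at 537, 203, 806 and 145 CPM at E16.5 against 2.57, 1.61, 37.6 and 0.481 CPM at E14.5, and *Igfbp3* lies lower at E16.5 in the rule cells but higher in other mesenchyme.

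The lists are given beside the 3.35% of all genes that were higher at E16.5 and the 0.729% that were lower. Of 7 odontoblast genes 5 were higher and none lower, with *Smpd3*, *Col1a1* (1095 and 219 CPM, 2.27), the transcription factors *Klf4* (138 and 27.8 CPM, 1.98) and *Sp7* (26.4 and 6.74 CPM, 1.12) and *Alpl* (29.9 and 4.81 CPM, 1.43), and the sum over the list was 2477 against 557 CPM. Of 10 Wnt inhibitors 4 were higher, *Sfrp2* (2.80), *Notum* (2.15), *Dkk2* (1.67) and *Wif1* (1.60), and of 6 Wnt ligands and R-spondins 3 were higher, *Rspo2* (99.2 and 12.4 CPM, 2.29), *Rspo4* (1.49) and *Wnt6* (1.33). Of 18 odontogenic factors 5 were higher, *Dlx1* (2.18), *Msx2* (1.93), *Dlx3*, *Dlx4* and *Dlx5*, and none lower. Among ligands of the BMP and TGF-beta family, *Bmp2*, *Bmp3* (1.03) and the TGF-beta gene *Tgfb2* (1.53) were higher. *Inhba*, which encodes an activin subunit, was lower, at 129 and 531 CPM (-1.96). *Ccnd1* stood at 138 and 11.4 CPM (2.79) and *Ccnd2* at 321 and 1160 CPM (-1.82), both D-type cyclins, whereas none of 10 cell cycle genes passed 2-fold and their sums were 3600 and 3480 CPM. Of 16 immediate early genes 6 were higher at E16.5 and none lower, with *Fos* at 294 and 73.8 CPM (1.86). Of 27 matrix genes 6 were higher and 1 lower, and of 9 follicle genes 5 were higher and 1 lower.

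At E14.5 the cells picked differed from other mesenchyme of that stage in 59 genes higher (1.11% of 5329) and 167 lower (3.13%). Of 5296 genes compared at both stages, 3 were higher in the cells picked at both, *Fam107b*, *Car2* and *Asns*, and 42 were lower at both. Among these 5296 genes, 11 were higher and 55 lower at E16.5, and 54 were higher and 158 lower at E14.5. No cell picked could hold an *Ibsp* or *Sfrp4* UMI at either stage. Of other mesenchyme, 1419 of 3015 cells at E14.5 and 806 of 2078 at E16.5 held one, which bears on the genes lower at both. At E16.5, 7 of the 75 lower genes remained so against cells without *Ibsp* or *Sfrp4*. Of the 42 genes lower at both stages, only *Lsp1* and *Sfrp2* were among these 7. That comparison was made at E16.5 only. Of the 3 genes higher at both stages, *Car2* and *Fam107b* were also past 2-fold against those cells and *Asns* was not. The lowest E16.5 ratio of *Asns* under the alternatives was 0.054. *Igfbp3* alone was past 2-fold in opposite directions, although against E16.5 cells without *Ibsp* or *Sfrp4* its ratio of -0.89 was within 2-fold.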

How the data were processed

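Single-cell libraries of the lower incisor bud (E16.5, E14.5) or the whole mandible (E11.5) of wild type NMRI embryos were made with the 10x Genomics kit. Per the labels, the authors aligned the reads with Cell Ranger 4.0.0 to mm10 and deposited raw UMI counts over 32285 genes, 1 matrix per stage. Barcodes were not assigned to samples, so each stage was 1 sample, no p-value was computed, and labelled replicates could not be averaged.

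Cells were kept from 700 genes upward and up to 20% mitochondrial UMIs, with 1034 to 123785 UMIs (median 6260) per E16.5 cell. The rule, the genes and the lists were chosen with earlier results of these data known. Counts were summed per group and scaled to CPM. Genes of 50 or more counts, detected in 10% or more of one group, were compared by the log2 ratio with 10 CPM added, called at 2-fold. Levels have exact Poisson intervals (95%) and shares have Clopper-Pearson intervals. The interval of a ratio is approximate. It joins the Poisson limits of both sums, with their distances from the values added in quadrature on the log2 scale. A count of 0 allows 3 counts. All list genes could be named, with the 20 highest and 10 lowest ratios against other mesenchyme, 8 and 8 against *Ibsp* or *Sfrp4* cells and between stages, and 5 and 5 for splits by a rule gene. The 10 and 10 named for the subsets, and genes named for a count, were chosen after their values were seen. Clusters came from SCTransform (sctransform 0.4.2, Seurat 5.3.0, R 4.3.3), 2000 variable genes without the 6 rule genes, *Ibsp* and *Sfrp4*, 20 principal components and Leiden clustering at 0.4 (leidenbase 0.1.32). Scrublet (scanpy 1.11.5) called 2 doublets at E16.5, and whether it missed others was not tested. No doublets were removed, so some may remain. Python 3.11.15, numpy 2.4.6, scipy 1.17.1, pandas 2.3.3 and matplotlib 3.10.9 were used, and the code was tested on simulated data. Results for a few list genes are not reported here.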

Additional observations from a re-analysis of the deposited data

Results flagged for a closer look

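*Igfbp3* was past 2-fold in opposite directions at the 2 later stages. At E16.5 it stood at 27.5 CPM in the rule cells and 163 CPM in other mesenchyme, a log2 ratio of -2.20 (-2.46 to -1.94). Against E16.5 cells without *Ibsp* or *Sfrp4* the ratio was -0.89, within 2-fold, and with the limit on these genes lifted from the rule it was -0.24. At E14.5 it stood at 196 CPM in the cells that met the rule and 60.7 CPM in other mesenchyme, a ratio of 1.54 (1.42 to 1.66). The difference between the stages was not tested, and each stage was 1 sample. The E11.5 matrix, compared here for the 6 rule genes only, held 816 cells that met the rule although *Fgf3* had 1 count in them.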

How the results depend on the processing

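Among values of the main results under an alternative, 79 stayed within their limits and 51 moved. The share of rule cells, 4.52%, was 3.73% with at least 200 genes and no mitochondrial limit, a setting that changed both filters at once. It was 0.814% after thinning to 2000 UMIs (35 cells), 1.15% with at least 3 rule genes and 3.04% without *Penk*. Without the *Ibsp* and *Sfrp4* limit it was 6.21%, and with no epithelial gene allowed 2.59%. The 23 genes higher against other mesenchyme became 218 after thinning, 71 with at least 3 rule genes, 42 without *Egr3*, 44 without *Penk*, 7 without the *Ibsp* and *Sfrp4* limit, 36 with no epithelial gene, 89 and 3 with 1 and 50 CPM added, 41 by the mean per cell and 9 against cells without *Ibsp* or *Sfrp4*. The 75 lower became 205 after thinning, 41 among cells of 4000 to 12000 UMIs, 156 with 3 rule genes, 132 without *Penk*, 1 without the limit, 129 and 18 with 1 and 50 CPM and 8 against cells without *Ibsp* or *Sfrp4*. In settings chosen after seeing the data, these counts were 74 and 236 for rule cells with *Fgf3* without *Penk*, and 4 and 17 within the *Smpd3* cluster. The cell cycle ratio, 0.89, was 0.77 after thinning, 0.51 at 4000 to 12000 UMIs, 0.99 without *Egr3*, 0.63 without the limit, 0.92 without the highest doublet scores, 1.07 by the mean per cell and 0.67 against cells without *Ibsp* or *Sfrp4*. Against *Ibsp* or *Sfrp4* cells, the 136 higher became 86 after thinning, 84 at 4000 to 12000 UMIs, 230 with 3 rule genes, 76 without the limit, and 318 and 28 with 1 and 50 CPM; the 204 lower became 344 with 3 rule genes, 56 without the limit, and 341 and 59 with 1 and 50 CPM. Between stages, the 271 higher became 699 and 51 with 1 and 50 CPM, and the 59 lower became 242 after thinning, 95 with 3 rule genes, and 92 and 13 with 1 and 50 CPM.

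The comparisons of subsets and the splits by a rule gene were not run under the alternatives. Of 83 ratios of named genes past 2-fold in the other comparisons, among them genes such as *Aldh1a2* that were detected in too few cells to be compared, 67 kept their direction in every alternative run. The ratio against other mesenchyme reversed after thinning for *Sgms2* (-0.59), *Rubie* (-0.048), *Aspm* (-0.16), *Car12* (-0.66), *Ccdc81* (-0.56) and *Aspn* (0.24), and that of *Sgms2* against *Ibsp* or *Sfrp4* cells became -0.086. It reversed without the *Ibsp* and *Sfrp4* limit for *Pdzrn4* (0.053), *Slc1a3* (0.056), *Maf* (0.094), *Igfbp2* (0.052) and *Aldh1a2* (0.41), against cells without either gene for *Igf1* (0.033), and among cells with at most 1 cell cycle gene, a setting chosen after seeing the data, for *Ank3* (-0.11), *Kpna2* (-0.18) and *Ube2c* (-0.57), the last of which is one of the genes that the setting limits. The cause was not tested. No paired analysis was possible because the barcodes do not name their sample, and for the same reason no sample was left out in turn. At a median of 9858 UMIs, absence of a gene from a rule cell cannot be told from a missed molecule, and the 17 cells with *Crym* and 41 with *Egr3* limit the splits by these genes.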
